A study of Mus musculus with 4 samples.

Results

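The genes described here belong to the p53 pathway and to the Ink4 family of cell cycle inhibitors, and they were followed through 4 sorted fractions of reprogramming mouse embryonic fibroblasts (MEFs). A list of 10 genes, chosen with earlier results of these data known, defined them. All probe sets annotated to a listed gene were taken. The platform annotation named 13 probe sets for 8 of the 10 genes, out of 18193 genes and 34945 probe sets with 1 gene symbol. These were Mdm2, Ccng1, Cdkn1a, Fas, Pmaip1, Bbc3, Cdkn2a and Cdkn2b. It named no probe set for Trp53 or Bax, which were not analysed here. All 8 genes reached the floor for a measured gene, the median of all values (4.53 on the log2 scale), on at least 1 array, as did 11428 genes in all.

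In reprogramming, transcription factors are brought into a somatic cell to return it to pluripotency. The labels describe cells that were fixed, made permeable, stained and sorted, and RNA of each fraction was read on 1 Affymetrix array. In gate order the fractions are the Oct4-negative cells, the Oct4+Klf4-negative cells, the Oct4+Klf4+EpCAM-negative cells and, last, the Oct4+Klf4+EpCAM+ cells. Oct4 and Klf4 are reprogramming factors and EpCAM is a surface protein of epithelial cells. The labels give neither the strain or age of the embryos nor the factors introduced, their delivery, the day of the sort or any drug, and they do not say whether the Oct4-negative cells grew in the same dish as the rest. In comparisons with that array, culture and gate cannot be told apart.

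p53 is a transcription factor that is held at a low level by the ubiquitin ligase Mdm2, is stabilized by DNA damage and by oncogenic or culture stress, and then switches on genes of cell cycle arrest and cell death. Because Mdm2 is itself a p53 target, the pair forms a negative feedback loop. The Ink4 proteins p16 and p15 bind Cdk4 and Cdk6 and keep the retinoblastoma protein active, and Arf, read from Cdkn2a in another frame, inhibits Mdm2. Both arms are induced when MEFs are grown in culture and are known as barriers to reprogramming of fibroblasts.

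The stretches upstream of the annotated starts are shown in groups, with a different feature marked in each. Sequences are from the RefSeq table of build GRCm38.p6. Windows of 7 of the 8 genes were scanned, and Pmaip1 was left out. Each window is the 250 bases that precede a start, printed 5′ to 3′ on the gene's strand. The first group is that of the genes with a match to the p53 half-site consensus, a palindromic 10-base motif that reads alike on both strands. Capitals mark these matches, and overlapping matches were allowed. Cdkn1a lies on the plus strand of chromosome 17 and has 2 annotated starts, and the window shown is that of the upstream start, at chr17:29090729-29090978. Mdm2 lies on the minus strand, with its window at chr10:117710759-117711008, and so does Ccng1, with its window at chr11:40755287-40755536.
Cdkn1a: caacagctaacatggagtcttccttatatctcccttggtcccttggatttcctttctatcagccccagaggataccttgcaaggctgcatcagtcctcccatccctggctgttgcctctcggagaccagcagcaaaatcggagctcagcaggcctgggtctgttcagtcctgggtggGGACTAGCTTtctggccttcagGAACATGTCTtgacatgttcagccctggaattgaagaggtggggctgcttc
Mdm2: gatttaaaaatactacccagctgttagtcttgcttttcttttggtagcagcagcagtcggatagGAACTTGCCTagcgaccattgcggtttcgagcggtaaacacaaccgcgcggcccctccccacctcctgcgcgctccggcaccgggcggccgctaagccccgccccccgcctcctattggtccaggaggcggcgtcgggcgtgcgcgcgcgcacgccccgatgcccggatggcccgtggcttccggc
Ccng1: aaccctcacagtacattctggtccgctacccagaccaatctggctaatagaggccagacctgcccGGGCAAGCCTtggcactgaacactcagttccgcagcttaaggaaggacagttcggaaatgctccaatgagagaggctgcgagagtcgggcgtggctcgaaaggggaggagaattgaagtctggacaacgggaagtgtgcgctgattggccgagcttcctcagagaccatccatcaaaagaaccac

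Of the 11 windows of the 7 genes, 3 held a half-site match, against 7.13% of 32851 windows of all genes. The Cdkn1a window held 2 matches, GGACTAGCTT and GAACATGTCT, which begin 73 and 51 bases before the start. Read together, they match the pattern used for a full p53 site, 2 half-sites with at most 13 bases between them, which 0.0639% of all windows held. This is a match of letters only, and whether p53 binds these bases was not tested. The Mdm2 window held GAACTTGCCT, which begins 186 bases before the start, and the Ccng1 window GGGCAAGCCT, which begins 185 bases before it. The windows of Fas, Bbc3, Cdkn2a and Cdkn2b and that of the downstream start of Cdkn1a had no match, which says only that these letters are not in those windows.

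The second group is the Ink4 locus on the minus strand of chromosome 4, where Cdkn2b and the 2 starts of Cdkn2a lie in a row. The upstream start of Cdkn2a gives Arf and the downstream start gives p16. Capitals mark CG dinucleotides. The window of Cdkn2b is chr4:89311033-89311282, that of Arf chr4:89294620-89294869 and that of p16 chr4:89282193-89282442.
Cdkn2b: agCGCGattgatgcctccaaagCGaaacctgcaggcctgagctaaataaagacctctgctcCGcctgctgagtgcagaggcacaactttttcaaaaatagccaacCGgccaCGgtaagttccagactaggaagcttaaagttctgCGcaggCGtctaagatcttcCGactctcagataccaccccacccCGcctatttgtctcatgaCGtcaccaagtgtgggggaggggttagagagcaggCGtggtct
Cdkn2a, Arf start: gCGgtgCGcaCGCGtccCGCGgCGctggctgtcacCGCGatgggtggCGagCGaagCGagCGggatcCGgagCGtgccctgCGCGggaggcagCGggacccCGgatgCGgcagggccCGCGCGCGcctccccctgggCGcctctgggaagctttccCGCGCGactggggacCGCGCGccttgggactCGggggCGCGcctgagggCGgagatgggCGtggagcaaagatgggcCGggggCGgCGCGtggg
Cdkn2a, p16 start: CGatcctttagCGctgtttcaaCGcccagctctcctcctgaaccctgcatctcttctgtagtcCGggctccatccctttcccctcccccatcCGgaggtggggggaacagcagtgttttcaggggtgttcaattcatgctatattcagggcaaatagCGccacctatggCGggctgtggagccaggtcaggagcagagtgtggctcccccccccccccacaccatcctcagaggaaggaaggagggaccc

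The Arf window held 40 CG dinucleotides, and 1.09% of all windows held more. The Cdkn2b window held 12 and the p16 window 7, beside a median of 6 over all windows. The Mdm2 window held 29 and the Bbc3 windows 27, 23 and 37, while the upstream Cdkn1a window held 2. The CG count thus did not set the Ink4 genes apart. The single Cdkn2a probe set, 1450140_a_at, has a suffix that in the maker's naming marks a set reading several transcripts of 1 gene. The array therefore gives 1 value for the Cdkn2a products, and p16 and Arf cannot be told apart below.

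Values are log2 levels from robust multi-array average (RMA) processing. With 1 array per fraction there are no replicates and no test, so precision is limited by the number of arrays. A gene was called higher or lower where 2 arrays differed by at least 2-fold and the brighter one reached the floor. As a gauge of measurement scatter alone, the median SD of the difference between probe sets of 1 gene was 0.167 at the Oct4 gate, 0.172 at the Klf4 gate, 0.122 at the EpCAM gate and 0.177 between the ends, over 5708 genes. In sorted bulk RNA, fewer cells of a type and less RNA per cell cannot be told apart.

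Array medians lay between 4.49 and 4.55, and Pou5f1, Klf4 and Epcam, each by its brightest probe set, had their highest level in the Oct4+Klf4+EpCAM+ array. The Gapdh control probe sets differed between the 3′ and 5′ ends of the transcript by 1.30 in the Oct4+Klf4-negative array and by 0.966 to 1.04 in the others. Of 13 fibroblast markers, 12 reached the floor and 1, Pdgfra, did not. Their summed linear level was 18790, 10979, 7994 and 4609 through the gates. The collagen gene Col1a1 had levels of 11.33, 8.06, 6.15 and 5.26. Between the ends, 11 of the 12 measured markers were lower by at least 2-fold and 1, Dcn, was higher. The summed fibroblast level was thus highest in the Oct4-negative array and lowest in the Oct4+Klf4+EpCAM+ array, in the same order as several of the genes below, and its part in their differences was not tested. Of 11 leukocyte markers, 7 did not reach the floor, among them Ptprc, but Laptm5 was 23.7-fold higher and Cd68 2.43-fold lower between the ends, and the list's summed linear level was 326, 158, 900 and 521. Of 8 endothelial markers, 4 did not reach the floor, among them Pecam1 and Cdh5, but Tek was 42.4-fold, Cldn5 17.8-fold and Flt1 3.67-fold higher and Egfl7 2.04-fold lower, with sums of 274, 395, 887 and 867. The part of these markers was not tested either.

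All 8 genes had a lower level in the Oct4+Klf4+EpCAM+ array than in the Oct4-negative array, and 5 of them, Mdm2, Fas, Pmaip1, Cdkn2a and Cdkn2b, by at least 2-fold. Of all measured genes, 10.8% were lower by that rule and 11.9% higher, and none of the 8 was higher. Their median log2 difference was -1.56, beside 0.07 for all measured genes. These genes and the lists below were chosen with earlier results of these data known, so such contrasts describe the chosen genes and test nothing. The genes did not move alike: Cdkn1a, which encodes the CDK inhibitor p21, hardly differed between arrays, while Fas differed most. With the Oct4+Klf4-negative array as the start in place of the Oct4-negative one, 3 of the 8 were lower, Mdm2, Fas and Pmaip1, beside 9.42% of all measured genes.

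**Figure D1:**
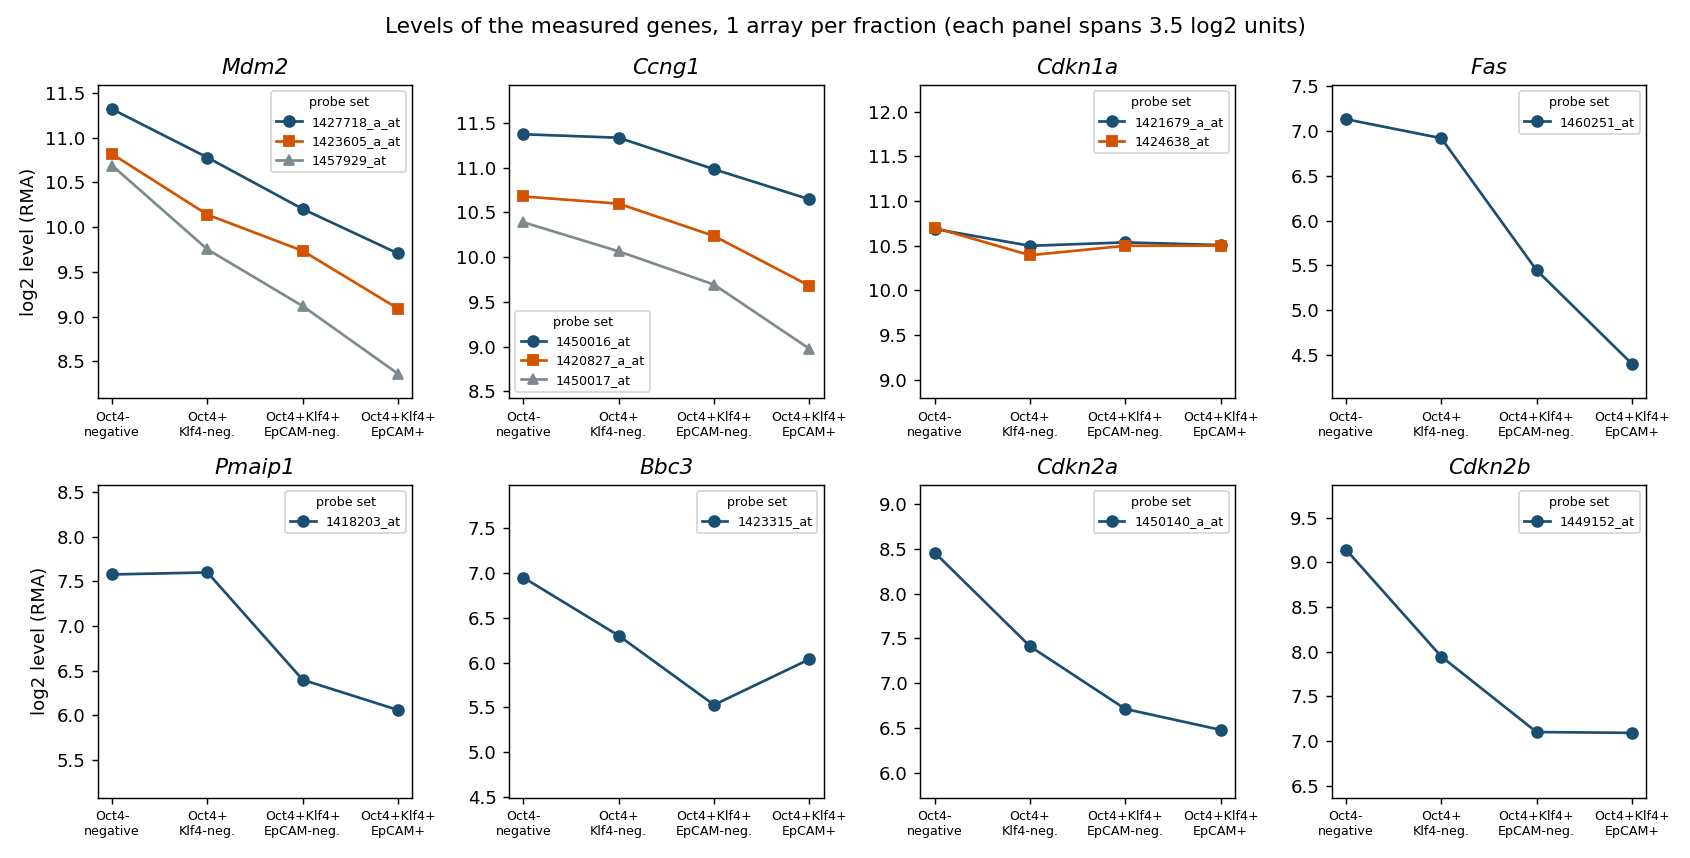
Log2 level (vertical axis, RMA) of each probe set of the 8 genes in the 4 fractions in gate order (horizontal axis). Each point is 1 array, each line is 1 probe set, and each panel spans the same height. Mdm2 and Ccng1 step down in each of their 3 probe sets, Cdkn1a stays between 10.39 and 10.70, and Bbc3 is lowest in the Oct4+Klf4+EpCAM-negative array.

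Mdm2, the ligase that marks p53 for degradation, had levels of 11.32, 10.78, 10.20 and 9.71 in its brightest probe set, 1427718_a_at, through the gates. It was lower by a similar amount at each gate, with log2 differences of -0.54, -0.58 and -0.50, none of which reached 2-fold. Between the ends it was 3.06-fold lower in the Oct4+Klf4+EpCAM+ array. Its probe set 1423605_a_at had levels of 10.82, 10.14, 9.74 and 9.09, a 3.31-fold difference between the ends. Probe set 1457929_at had levels of 10.69, 9.75, 9.12 and 8.36, and its difference was 5.02-fold. The 3 probe sets of Mdm2 thus ran in the same order over the 4 arrays and differed in the size of the decline.

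Ccng1 encodes cyclin G1, a p53 target that recruits a phosphatase to Mdm2. Its brightest probe set, 1450016_at, had levels of 11.37, 11.33, 10.98 and 10.65, a 1.65-fold lower level in the Oct4+Klf4+EpCAM+ array than in the Oct4-negative array. Probe set 1420827_a_at had levels of 10.68, 10.60, 10.24 and 9.68, and its log2 difference of -0.997 between the ends fell just short of the rule. Probe set 1450017_at had levels of 10.39, 10.06, 9.69 and 8.98, and its difference was 2.66-fold. All of them placed the Oct4-negative array highest and the Oct4+Klf4+EpCAM+ array lowest, with the call resting on which probe set stands for the gene.

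Cdkn1a stands apart from these targets. Its probe set 1421679_a_at had levels of 10.69, 10.50, 10.54 and 10.51, and 1424638_at had levels of 10.70, 10.39, 10.50 and 10.50. The Oct4-negative array was the highest in both, and the 3 Oct4-positive arrays lay within 0.107 of each other at most. The log2 difference between the ends was -0.18, in the size of the scatter between probe sets.

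Fas, Pmaip1 and Bbc3, the cell death genes, had their largest step at the Klf4 gate, and for Fas and Pmaip1 it reached 2-fold. Fas, the death receptor of the tumour necrosis factor receptor family, had levels of 7.13, 6.92, 5.45 and 4.40. It was 2.78-fold lower in the Oct4+Klf4+EpCAM-negative array than in the Oct4+Klf4-negative array and a further 2.06-fold lower in the Oct4+Klf4+EpCAM+ array, where its level lay below the floor. The 6.65-fold difference between its ends was exceeded on the lower side by 265 of the 11428 measured genes. Fas was the 1 gene of the 8 that was lower by the rule at the EpCAM gate, where 1.79% of all measured genes were lower and 3.11% higher.

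Pmaip1 encodes Noxa, a BH3-only protein that neutralizes Mcl1. Its levels were 7.58, 7.60, 6.40 and 6.06, so that both Klf4-positive arrays lay below both others. It was 2.30-fold lower in the Oct4+Klf4+EpCAM-negative array than in the Oct4+Klf4-negative array. Fas and Pmaip1 were the 2 genes of the 8 lower by the rule at the Klf4 gate, where 6.88% of all measured genes were lower and 8.44% higher.

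Bbc3 encodes Puma, another BH3-only protein. It had levels of 6.95, 6.30, 5.53 and 6.04, and was the 1 gene of the 8 with a clear step up at the EpCAM gate, by a log2 difference of 0.51. That step was short of 2-fold, as were its differences of -0.65 at the Oct4 gate and -0.77 at the Klf4 gate. Between the ends it was 1.88-fold lower in the Oct4+Klf4+EpCAM+ array.

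**Figure D2:**
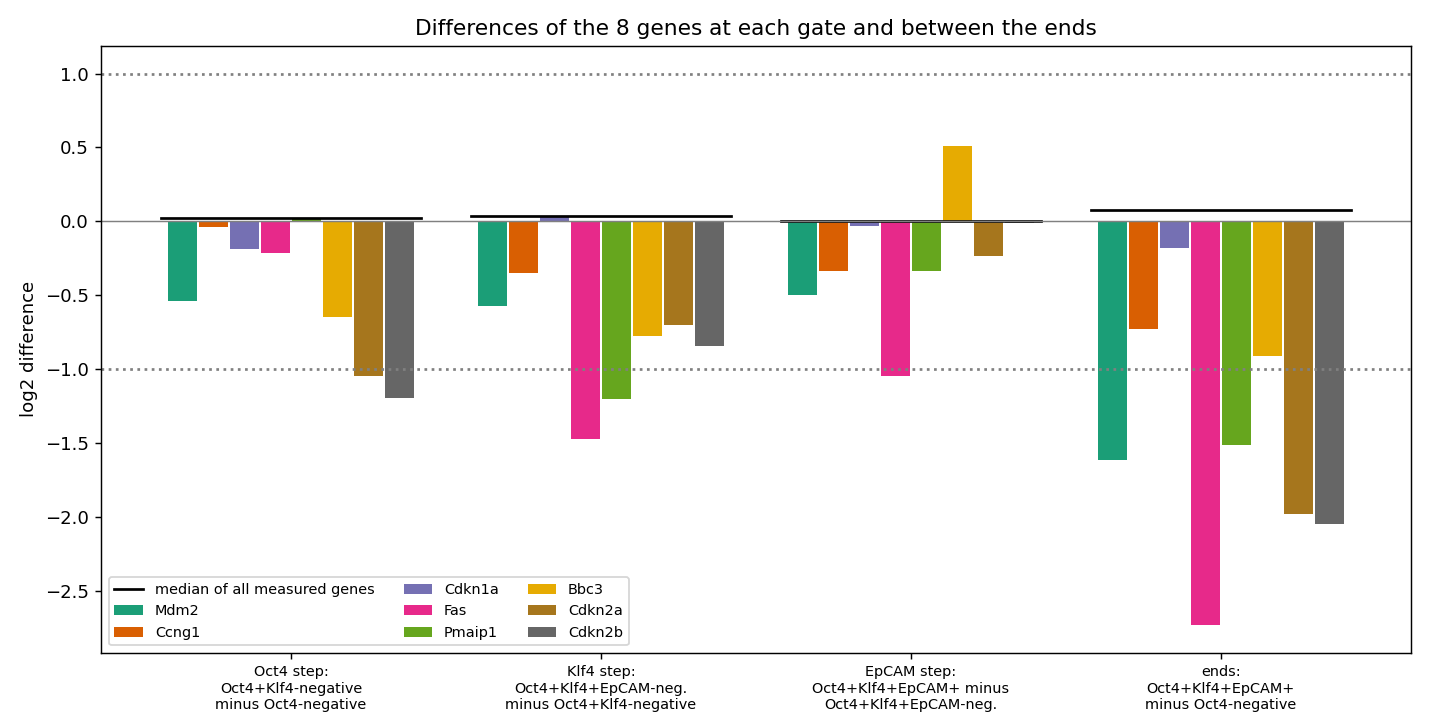
Log2 difference (vertical axis) of the 8 genes, each by its brightest probe set, in 4 comparisons of 1 array against 1 array (horizontal axis). Bars are genes, black lines are the medians of all 11428 measured genes, and dotted lines mark a 2-fold difference. Cdkn2a and Cdkn2b pass it at the Oct4 gate, Fas and Pmaip1 at the Klf4 gate and Fas at the EpCAM gate.

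Both Ink4 genes passed the size rule at the Oct4 gate, the first in the gate order. Cdkn2b, which encodes p15, had levels of 9.14, 7.95, 7.10 and 7.09, and was 2.29-fold lower in the Oct4+Klf4-negative array than in the Oct4-negative array. Cdkn2a, which encodes p16 and Arf, had levels of 8.46, 7.41, 6.71 and 6.48, and its difference at that gate was 2.07-fold. They were the 2 genes of the 8 lower by the rule at the Oct4 gate, where 4.84% of all measured genes were lower and 3.59% higher. At the Klf4 gate both were lower again, Cdkn2b by 1.80-fold and Cdkn2a by 1.62-fold in the Oct4+Klf4+EpCAM-negative array. At the EpCAM gate Cdkn2b had a log2 difference of -0.0093 and Cdkn2a of -0.23. Between the ends Cdkn2b was 4.14-fold and Cdkn2a 3.95-fold lower in the Oct4+Klf4+EpCAM+ array. Of the whole log2 difference between the ends, the Oct4 gate held 58.3% for Cdkn2b and 52.9% for Cdkn2a. By the brightest probe sets it held 33.5% for Mdm2, 7.76% for Fas and 5.33% for Ccng1. Other probe sets gave the Oct4 gate more, with -0.32 of -1.41 for 1450017_at of Ccng1 and -0.94 of -2.33 for 1457929_at of Mdm2. For Bbc3 the shares of the Oct4, Klf4 and EpCAM gates were 71.1%, 84.7% and -55.8%. For Pmaip1 the share of the Oct4 gate was -1.49%. Cdkn1a differed too little between the ends for a share to be read. Both Ink4 differences at the Oct4 gate rest on the array that may be from another culture.

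The likeness of profiles was measured as the root mean square difference over the 4 arrays between levels centred on each gene's own mean. Among the 8 genes, Cdkn2a and Cdkn2b were the most alike pair, at 0.109, and the next pair, Mdm2 and Cdkn2a, stood at 0.237. Of the 8 genes, 5, namely Mdm2, Cdkn2a, Cdkn2b, Fas and Ccng1, had a lower level at each successive gate, a count chosen after the values were seen, beside 10.9% of all measured genes. The EpCAM step of Cdkn2b and the Oct4 step of Ccng1 (-0.039) were below the scatter between probe sets.

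Of the other measured genes, those with profiles most like that of Cdkn2b were Slc38a6 (0.0300), Slit3 (0.0611), Ttll5 (0.0677), Hic1 (0.0730) and Parp3 (0.0735). Those nearest to Cdkn2a were Timp2 (0.0628), an inhibitor of matrix metalloproteinases, Hic1 (0.0666), Creb5 (0.0687), Ripor1 (0.0749) and Parvb (0.0791). Hic1, a transcriptional repressor known as a p53 target, was thus near both Ink4 genes. Its levels were 6.79, 5.76, 4.89 and 4.75.

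Nearest to Mdm2 were the phospholipid-binding annexin gene Anxa5 (0.0359), Zfp651 (0.0380), Fam118a (0.0561), Camk1 (0.0647) and Cmtm3 (0.0671). Nearest to Fas were Rcbtb2 (0.0784), Rhobtb1 (0.0925), Dixdc1 (0.109), the matrix gene Fbln1 (0.115) and Arsb (0.125). Pmaip1 had Stau2 (0.0257), Man2b1 (0.0488), Sema6a (0.0502), Ppm1m (0.0513) and the lysosomal protease gene Lgmn (0.0532). Nearest to Bbc3 was Btg2 (0.0523), an antiproliferative p53 target, with levels of 9.14, 8.61, 7.84 and 8.35, followed by Pde4a (0.0568), Igfbp2 (0.0708), Lpar2 (0.0765) and Trib1 (0.0966).

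Other targets of p53 were read from a list of 35 genes, of which 34 were measured. Between the ends, 10 of the 34 were lower and 2 higher in the Oct4+Klf4+EpCAM+ array, beside 10.8% and 11.9% of all measured genes, and their median log2 difference was -0.73, beside 0.07 for all. Tap1, a peptide transporter of antigen presentation, had levels of 8.15, 8.13, 5.99 and 5.03 and was 8.65-fold lower between the ends. Dcxr, a carbonyl reductase, was 5.07-fold lower, Dram1, a lysosomal regulator of autophagy, 3.83-fold, and the adenylate kinase gene Ak1 3.19-fold. Trp53inp1, a stress protein that acts with p53, was 3.13-fold lower, Pidd1, the scaffold of a caspase-2 complex, 2.85-fold, and Gadd45a, a DNA damage response gene, 2.65-fold.

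The 2 targets that were higher between the ends were Sfn and Tigar. Sfn, which encodes the epithelial 14-3-3 protein sigma, had levels of 5.35, 5.09, 6.67 and 8.32 and was 7.85-fold higher in the Oct4+Klf4+EpCAM+ array. Keratinocyte markers were 10 genes, of which 3 (Trp63, Krt15 and Lor) did not reach the floor. Their summed linear levels were 324, 390, 3348 and 4915 through the gates, higher in both Klf4-positive arrays than in the others. The part of these markers in the Sfn difference was not tested. Krtdap, with a level of 11.75 in the Oct4+Klf4+EpCAM+ array against 6.22 in the Oct4-negative array, gave most of the last sum. Of the 7 measured markers, 4 were higher by the rule and 0 lower between the ends, and the other 3 differed little, Krt5 by -0.02, Krt10 by -0.05 and Ivl by -0.10 on the log2 scale. Tigar, a phosphatase that lowers glycolytic flux, had levels of 7.54, 7.57, 8.42 and 8.72 and was 2.28-fold higher. Targets short of 2-fold between the ends included Phlda3, Zmat3 and Ei24, with log2 differences of -0.52, -0.75 and -0.011.

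**Figure D3:**
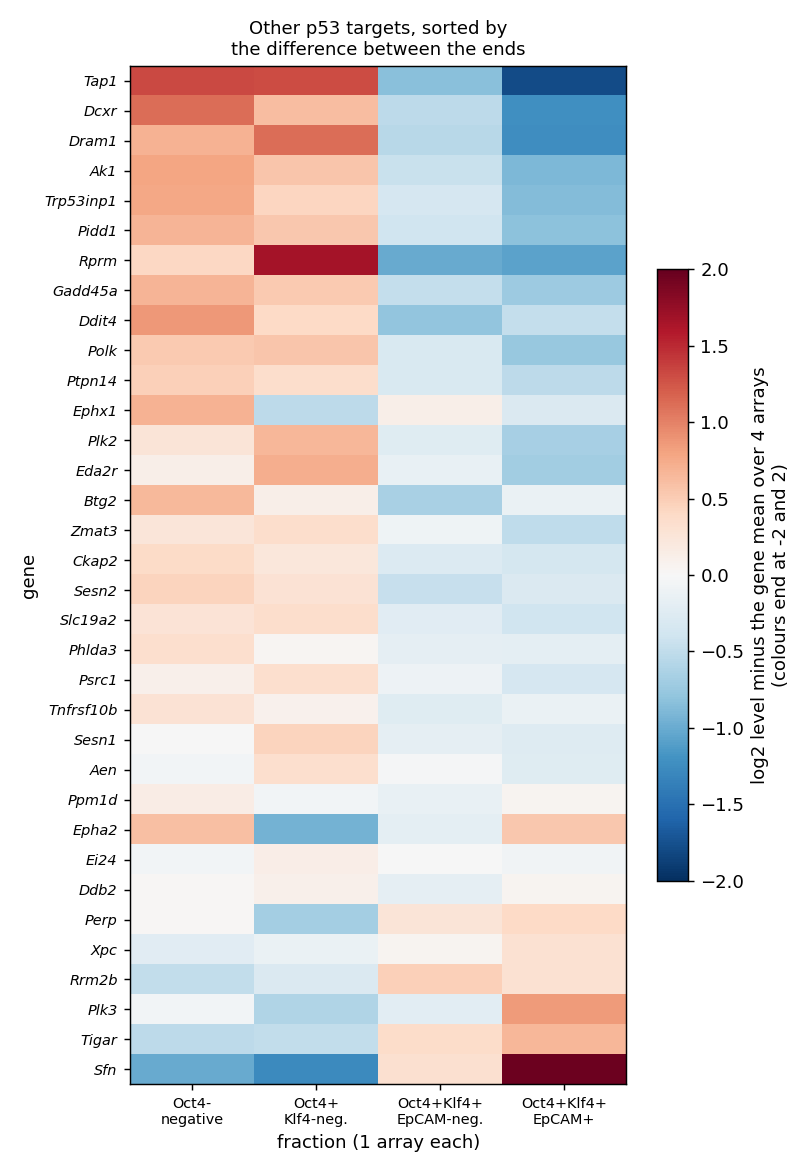
Levels of the 34 other measured p53 targets (rows, sorted by the difference between the ends) in the 4 fractions in gate order (columns), as log2 level minus the gene's mean over the 4 arrays. Blue is below and red above that mean. Tap1 and Dcxr lie at the top, highest in the Oct4-negative array, and Sfn at the bottom, highest in the Oct4+Klf4+EpCAM+ array.

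By gate, the Oct4 gate had 2 of the 34 targets lower, Epha2 (2.91-fold), an ephrin receptor, and Ephx1 (2.32-fold), an epoxide hydrolase, and 1 higher, Rprm (2.38-fold), the arrest gene reprimo. These are 5.88% and 2.94% of the list, near the 4.84% and 3.59% of all measured genes. The median log2 difference was -0.13, beside 0.02 for all measured genes. The Klf4 gate had 6 lower, led by Rprm (6.40-fold), Tap1 (4.40-fold), Dram1 (3.19-fold) and Ddit4 (2.28-fold), an inhibitor of mTOR signalling, and 1 higher, Sfn (2.99-fold). Of all measured genes, 6.88% were lower and 8.44% higher there, and with the mean of all probe sets of a gene 3 of the targets were higher. The median there was -0.54, beside 0.04 for all. At the EpCAM gate none was lower and Sfn (3.14-fold) and the kinase gene Plk3 (2.08-fold) were higher in the Oct4+Klf4+EpCAM+ array, beside 1.79% lower and 3.11% higher of all measured genes, with a median of -0.12. With the arrays centred on the median gene, 1 was lower. Rprm thus had levels of 6.84, 8.08, 5.41 and 5.35, highest in the Oct4+Klf4-negative array.

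The regulators and relatives of p53 had few members past the rule. Of 22 measured, 2 were lower and 1 higher between the ends, or 9.09% and 4.55% beside 10.8% and 11.9% of all measured genes, and the median log2 difference was 0.09, beside 0.07 for all measured genes. It was -0.013 with the arrays centred on the median gene. Rchy1, a p53-induced ubiquitin ligase also called Pirh2, was 2.76-fold lower, and Pml, the scaffold of nuclear bodies, 2.19-fold lower. Daxx, a histone chaperone, was 2.16-fold higher. Mdm4, the relative and partner of Mdm2, had levels of 9.48, 9.65, 9.73 and 9.46, without the decline of Mdm2. Atm and Chek1, kinases of the DNA damage response, had log2 differences of -0.29 and 0.94. Hipk2, a kinase of p53, was 2.02-fold higher in the Oct4+Klf4-negative array than in the Oct4-negative array, a call that was lost with the mean of all probe sets. Trp63 and Trp73, which encode the p53 relatives, did not reach the floor.

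The other CDK inhibitors were mixed. Cdkn2c, which encodes the Ink4 protein p18, had levels of 7.01, 7.10, 5.07 and 4.14 and was 4.08-fold lower in the Oct4+Klf4+EpCAM-negative array than in the Oct4+Klf4-negative array. Between the ends it was 7.32-fold lower, more than Cdkn2a or Cdkn2b, and without their difference at the Oct4 gate. Cdkn2d, another Ink4 gene, had levels of 5.66, 5.93, 6.10 and 6.07 and so ran the other way. Cdkn1c, which encodes p57, was 2.03-fold lower in the Oct4+Klf4-negative array than in the Oct4-negative array. Cdkn1b, which encodes p27, had a log2 difference of -0.39 between the ends. Cdkn3, a phosphatase gene of dividing cells, was 2.17-fold higher.

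Downstream of the Ink4 proteins, the D cyclins, their kinases, the pocket proteins and the E2F factors had 2 of 21 members lower and 1 higher between the ends, with a median log2 difference of 0.04. The 9.52% lower is near the 10.8% of all measured genes, and the count was 1 with the mean of all probe sets of a gene. The median was -0.046 with that mean and -0.062 with the arrays centred on the median gene. Ccnd2, which encodes cyclin D2, had levels of 11.38, 10.92, 10.17 and 9.66 and was 3.30-fold lower. E2f1 was 2.03-fold lower and E2f2 3.55-fold higher. Cdk4 and Cdk6, the kinases that Ink4 proteins bind, had log2 differences of -0.75 and 0.11, and Rb1 one of 0.04.

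Regulators of the Ink4 locus were read from a list of 26 genes, 24 of them measured. Between the ends 5 were higher and 3 lower, which is 20.8% and 12.5%, beside 11.9% and 10.8% of all measured genes. With the mean of all probe sets of a gene 3 were higher, and with the floor at the 75th percentile 2. The median log2 difference was 0.22, beside 0.07 for all measured genes. The higher ones included Cbx2 (3.03-fold), Cbx7 (2.30-fold) and Ezh1 (2.18-fold), subunits of Polycomb complexes that silence the locus, and Zbtb7a (2.34-fold), a repressor of Arf. Cbx7 had levels of 4.16, 4.54, 5.26 and 5.37, below the floor in the Oct4-negative array. Ezh2 and Bmi1, 2 further Polycomb genes, had log2 differences of 0.85 and -0.50. On the lower side were Ets1 (21.7-fold), Twist1 (10.4-fold) and Hmga2 (2.42-fold). The list holds both activators and repressors of the locus, and whether their differences share a direction of effect was not tested. Twist1 is also in the fibroblast list.

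The BCL-2 family and caspase genes had 2 of 21 measured members lower and none higher between the ends, with a median of -0.22. That is 9.52% lower, near the 10.8% of all measured genes, and the count was 1 with the mean of all probe sets of a gene. The 2 genes were Cflar (2.26-fold), an inhibitor of signalling from death receptors such as Fas, and Apaf1 (2.06-fold), the core of the apoptosome. Bcl2l11, which encodes Bim, was 2.01-fold lower in the Oct4+Klf4+EpCAM-negative array than in the Oct4+Klf4-negative array, a call lost with the mean of all probe sets. Mcl1, the partner of Noxa, had levels of 10.21, 10.34, 10.14 and 9.94. The ligand gene Fasl did not reach the floor.

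Genes of the senescence-associated secretory programme had 14 of 22 members measured, and 8 of them were lower and none higher between the ends, beside 10.8% and 11.9% of all measured genes, with a median log2 difference of -1.93. Plau, the urokinase gene, was 29.2-fold lower in the Oct4+Klf4+EpCAM+ array, and the chemokine genes Cxcl1, Ccl7 and Ccl2 were 19.3-fold, 18.8-fold and 12.6-fold lower. At the Oct4 gate 8 of the 14 were lower as well, beside 4.84% of all measured genes, with a median of -2.02. At the Klf4 gate 3 were lower and 3 higher, beside 6.88% and 8.44%, with a median of -0.06. The higher ones there were Plaur (4.35-fold), the urokinase receptor gene, Igfbp5 (3.43-fold) and Timp1 (2.24-fold). Plaur had levels of 7.65, 5.51, 7.63 and 8.22 and Timp1 of 9.69, 8.71, 9.88 and 9.63, so both were first lower at the Oct4 gate. At the EpCAM gate 1 gene, Igfbp5 (4.64-fold), was lower and 0 were higher, beside 1.79% and 3.11% of all measured genes, with a median of -0.13. The list's medians shrank to -0.16 between the ends and -0.44 at the Oct4 gate when its members below the floor, such as Il6, were kept. With the floor at the 75th percentile, 5 were lower in both comparisons.

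**Figure D4:**
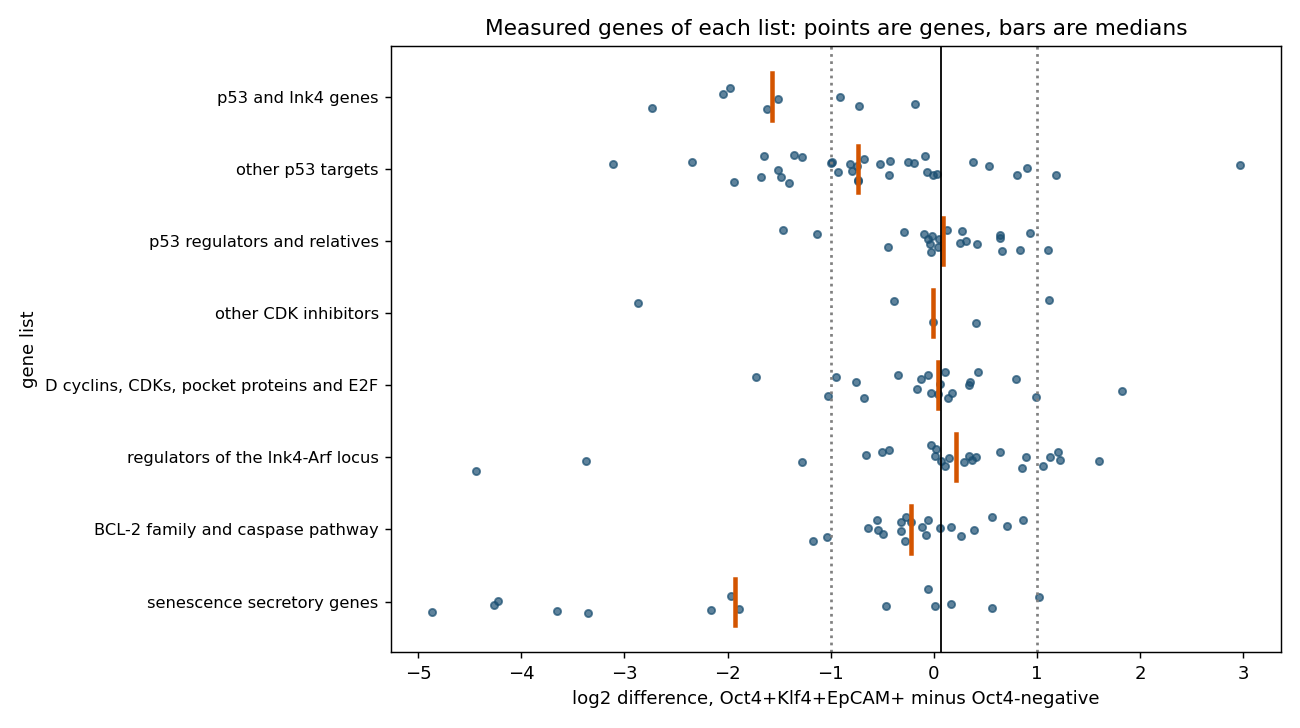
Log2 difference between the Oct4+Klf4+EpCAM+ and Oct4-negative arrays (horizontal axis) for the measured genes of each list (rows). Points are genes with a small vertical scatter for legibility, orange bars are list medians, the black line is the median of all measured genes (0.07) and dotted lines mark 2-fold. The medians of the p53 and Ink4 genes, the other p53 targets and the senescence secretory genes are -1.56, -0.73 and -1.93, and those of the other lists lie between -0.22 and 0.22.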

How the data were processed

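RNA from 4 sorted fractions was profiled, with 1 array per fraction. Per the labels' protocols, RecoverAll was used to isolate RNA from the fixed cells, and the Ovation Pico WTA kit to make biotinylated cDNA. The deposited values are log2 levels per probe set from RMA, per the submitters' processing notes, with the version not given in the sources used here. No scanner files were used here. Of 45101 probe sets, 64 controls were left out, and of the rest 34945 carried a single gene symbol, 932 carried more than 1 and were set aside, and 9160 stayed unnamed. RefSeq identifiers of GRCm38.p6 changed 0 symbols.

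Each gene was read from its brightest probe set, by the mean of the 4 arrays. A fold with its dimmer level at or below 2.94, the highest of 27 bacterial control probe sets that stayed below the floor, would be a lower bound, and none printed here is one. The named genes are the 8 genes with all their probe sets, up to 4 called members of each list per comparison, any other list member with its value, and the 5 nearest profiles to each of the 8 whose range was at least 1. Members and lists were chosen with earlier results of these data known. The 2-fold rule was also run on simulated data whose only noise was the scatter between probe sets. That run cannot show how often arrays of different sorts or cultures differ by 2-fold. Python 3.11.15, pandas 2.3.3 and numpy 2.4.6 were used.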

Additional observations from a re-analysis of the deposited data

How the results depend on the processing

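The 8 alternative settings and 1 start array added after seeing the data left 59 of 65 counts of the 8 genes within 1.5 times the reported count. These include the counts of higher genes, which were 0 as reported in every comparison. A floor raised to the 75th percentile left 0 of the 8 genes lower at the EpCAM gate. A 1.5-fold size rule gave 5 lower at the Klf4 gate, and a 3-fold rule gave 0 lower at each of the Oct4, Klf4 and EpCAM gates. The start at the Oct4+Klf4-negative array gave 3 lower between the ends. Of 128 log2 differences of single genes, 123 moved by less than the scatter between probe sets, and 0 called ones changed sign. The others were those of Mdm2 and Ccng1 under the mean of all probe sets, which gave -1.89 and -1.05 between the ends. Part of this was fixed in advance. None of the 13 probe sets has a cross-hybridizing suffix, so leaving such sets out changed nothing for the 8 genes. The 5 genes with 1 probe set could not move under the mean of all probe sets. Of 448 counts of the pathway lists, 91 moved by more than 1.5 times, most of them under another size rule or floor. Of 192 list medians, 9 moved by more than that scatter and 18 changed sign. No paired analysis was possible because each fraction has 1 array. Without replicates, no value has an error between cultures or sorts.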
